A study of Mus musculus with 15 samples.

Results

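The acute phase response was examined through 10 genes in murine cardiac and hepatic allografts. The genes were Saa1, Saa2, Saa3 and Saa4 (serum amyloid A), Orm1 and Orm2 (orosomucoids), Hp (haptoglobin), Apcs (serum amyloid P component), Crp (C-reactive protein) and Hamp (hepcidin). They were chosen by name, and all probes of these genes were taken, which gave 12 probes for 10 of the 32301 genes named on the array. Saa1 and Saa4 had 2 probes each, and the brighter probe over all arrays was used unless stated.

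Total RNA of male mice was hybridized to 15 arrays with 1 dye, which fell into 5 groups of 3. Cardiac allografts came from C57BL/10 (B10, H-2b) donors, were placed heterotopically in the abdomen of CBA (H-2k) recipients and were taken at post-operative day 5 (POD5). Hepatic allografts came from B10.BR (BR, H-2k) donors, were placed orthotopically with the cuff technique in B10.D2 (D2, H-2d) recipients and were taken at POD5 or at POD8. The controls were 3 hearts and 3 livers, called normal tissue in the labels and methods but isografts elsewhere in the study, and their strain was not given. The study described models without immunosuppression. The labels did not say that the arrays of a group came from separate animals, and the P-values then measure only the spread between these samples. The cardiac and hepatic models differed in donor, recipient and site of the graft, so organ and strain combination cannot be told apart.

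Acute phase proteins are plasma proteins whose hepatic synthesis is altered by injury, infection or surgery. Interleukin-6 acts on hepatocytes through gp130, JAK kinases and STAT3, and interleukin-1 and tumour necrosis factor act through NF-kB and C/EBP factors. Saa1 and Saa2 are the main inducible forms carried by high-density lipoprotein in the mouse, Saa3 is known for expression outside the liver, in macrophages and fat among others, and Saa4 is regarded as constitutive. Serum amyloid P component is the major acute phase pentraxin of the mouse, in which C-reactive protein is only weakly inducible.

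The brightness of the arrays differed, with a 75th percentile of processed signal from 87.8 (hepatic control 1) to 1151 (cardiac control 1), and 52.5% to 70.5% of the probes were well above background. None of the spots was saturated. Signals are given on the log2 scale after quantile normalization. Organ identity followed the labels, with summed hepatocyte markers (8 genes) of 149 to 811 in hearts and 491049 to 561056 in livers, and summed cardiomyocyte markers (10 genes) of 954696 to 1503310 in hearts and 651 to 1987 in livers. In the hearts, Alb, Hnf4a and Ttr were not well above background on any array, nor were Apob and Apoa2 in the allografts. Of the 3 cardiac controls, replicate 2 was the lowest for 7 of the 10 acute phase genes. Replicate 1 was the highest for 5 of them and replicate 3 for 4. Of the 3 hepatic controls, replicate 1 was the lowest for 8 of the 10 and replicate 3 the highest for 9 of the 10.

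The 250 bases before the transcription start are shown for the serum amyloid A genes whose probes moved alike or apart, and for Hamp, whose cardiac controls varied the most (SD 4.49, n = 3). They were taken from RefSeq (GRCm38.p6), which had an entry for 8 of the 10 genes, Orm1 and Hp being the exceptions. Saa1 lies at chr7:46742981-46743230 on the minus strand, Saa2 at chr7:46751583-46751832 on the plus strand, Saa3 at chr7:46715677-46715926 on the minus strand and Hamp at chr7:30944030-30944279 on the minus strand. Capitals mark matches to 1 of 6 motifs searched on both strands.
Saa1: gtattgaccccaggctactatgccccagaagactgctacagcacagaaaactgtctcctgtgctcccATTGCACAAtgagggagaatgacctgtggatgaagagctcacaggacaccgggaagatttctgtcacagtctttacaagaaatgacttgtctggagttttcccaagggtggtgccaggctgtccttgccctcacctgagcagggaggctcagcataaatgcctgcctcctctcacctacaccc
Saa2: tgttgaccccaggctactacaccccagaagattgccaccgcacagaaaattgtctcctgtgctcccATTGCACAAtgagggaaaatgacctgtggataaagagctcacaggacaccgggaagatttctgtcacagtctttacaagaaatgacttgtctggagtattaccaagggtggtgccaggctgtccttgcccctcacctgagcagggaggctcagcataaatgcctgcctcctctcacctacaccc
Saa3: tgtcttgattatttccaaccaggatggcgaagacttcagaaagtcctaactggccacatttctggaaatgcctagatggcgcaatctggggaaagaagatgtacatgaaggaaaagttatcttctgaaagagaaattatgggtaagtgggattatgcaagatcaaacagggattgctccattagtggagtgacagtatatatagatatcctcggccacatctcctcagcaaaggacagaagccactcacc
Hamp: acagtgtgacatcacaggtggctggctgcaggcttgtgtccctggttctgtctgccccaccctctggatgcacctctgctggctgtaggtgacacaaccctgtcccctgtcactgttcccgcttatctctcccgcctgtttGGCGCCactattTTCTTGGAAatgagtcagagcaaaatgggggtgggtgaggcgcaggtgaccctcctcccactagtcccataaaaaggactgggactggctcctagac

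The upstream sequences of Saa1 and Saa2 were 94.8% identical over 251 aligned columns, and those of Saa1 and Saa3 were 52.5% identical over 276. The C/EBP motif TTNNGNAAT was found in Saa1, Saa2, Orm2 and Crp, and in 10.2% of 32851 upstream sequences of the same length. A STAT motif, TTCNNNGAA, was found in Hamp and Apcs and in 7.02% of all, and a BMP response motif, GGCGCC, was found in Hamp and in 9.59% of all. The IL-6 response motif CTGGGAA was found in Apcs and in 9.1% of all, whereas the NF-kB motif (GGGNN followed by TTTCC, 1.41% of all) and the HNF1 motif (GTTAAT and ATTAAC with any base between them, 0.00913% of all) were found in none of the 8 genes. No 2 of the motifs overlapped in the sequences shown. These are letter matches in a short window and say nothing of binding.

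**Figure D1:**
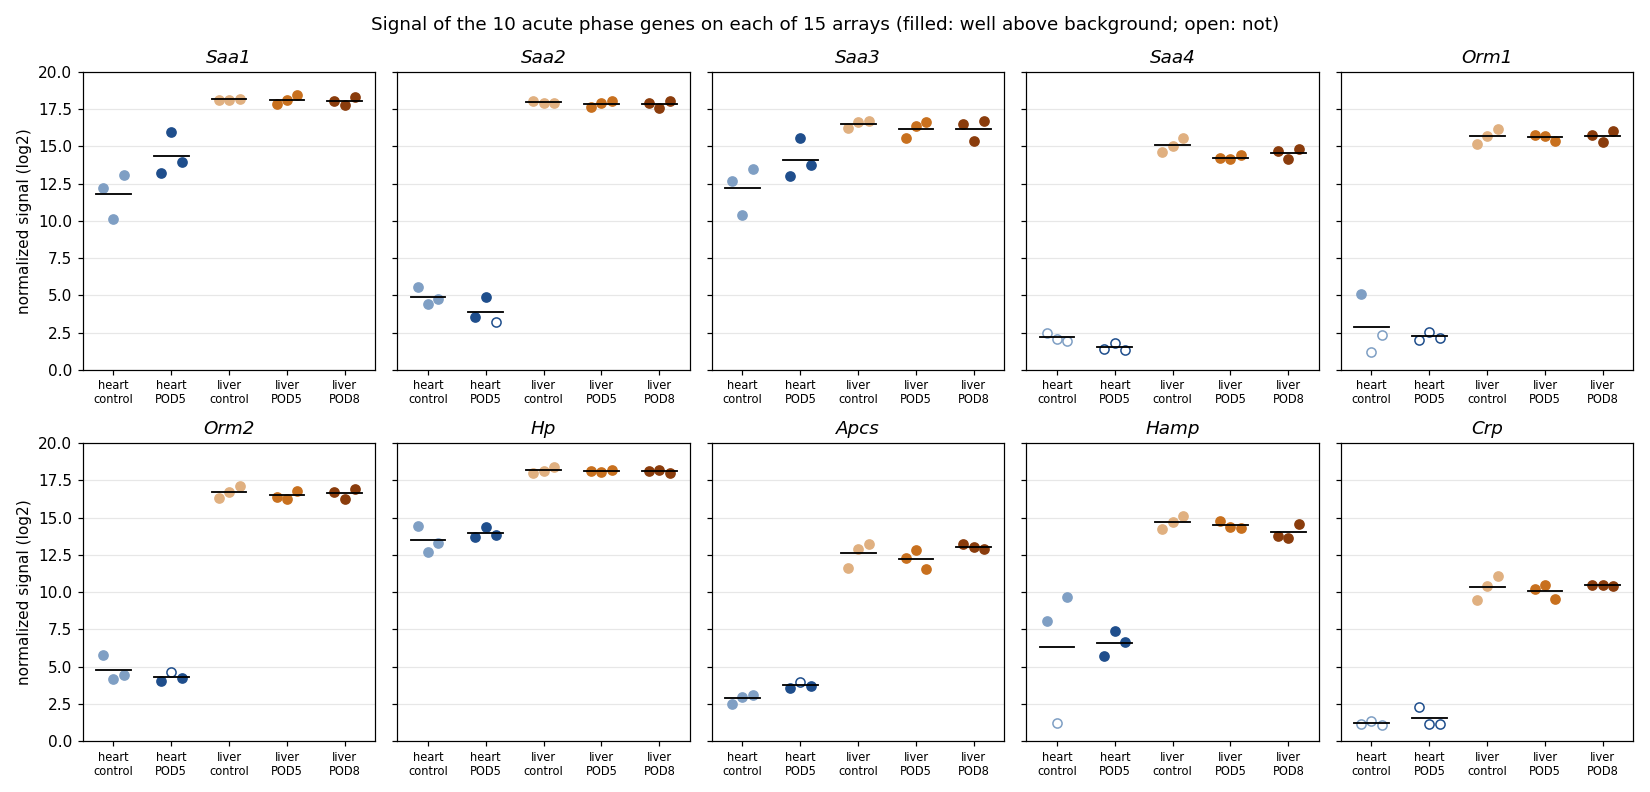
Each panel plots the normalized log2 signal (vertical axis) of 1 gene on the 3 arrays of each of 5 groups (horizontal axis), with a line at the group mean. Filled points were well above background and open points were not. All 10 genes were higher in the hepatic controls than in the cardiac controls, and the 3 hepatic groups lay close together.

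All 10 genes were higher in hepatic than in cardiac controls (limma, adjusted P-value under 0.05), where 53.8% of the 41171 probes tested were called, 26.4% higher and 27.5% lower. Both groups of controls were without overlap for all 10, as they were for 66.4% of all probes (35.7% higher in liver, 30.6% lower). The median log2 difference was 9.43 over the 10 genes and 0.07 over all probes. Crp, a pentraxin that binds phosphocholine, was not well above background on any cardiac array and was at least 232-fold higher in liver. Saa4 was likewise not well above background in any heart and was at least 6094-fold higher in liver on its brighter probe. On its other probe the bound was 2724-fold.

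Orm1 and Orm2, plasma proteins that bind drugs and modulate immunity, were higher in liver by 12.82 ± 0.72 (SE, n = 3 and 3; adjusted P = 1.98e-08 in limma) and 11.93 ± 0.38 on the log2 scale. Orm1 was well above background in only 1 of the 3 cardiac controls. The log2 difference was 13.07 ± 0.38 for Saa2, 9.73 ± 0.39 for Apcs and 8.33 ± 1.55 for Hamp. Saa3, Hp and the brighter Saa1 probe had smaller differences, of 4.33 ± 0.78, 4.72 ± 0.34 and 6.34 ± 0.71. The dimmer Saa1 probe differed by 13.18 ± 0.58, so the 2 probes of Saa1 gave unlike organ ratios.

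Haptoglobin, which binds free haemoglobin, was well above background in every heart, at 14.40, 12.69 and 13.31 in the cardiac controls. The Saa3 probe was also well above background in every heart. Of the 8 hepatocyte markers, only Alb, Hnf4a and Ttr were well above background on none of the cardiac controls. The summed markers read 9.66, 7.22 and 8.02 on the log2 scale in controls 1 to 3, with the same highest and lowest control as haptoglobin. What stood behind this likeness was not tested.

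In cardiac allografts at POD5, Saa1 was called higher than in controls, none of the 10 genes was called lower, and 9 did not pass the test. Over all probes, 28.5% were called, 13.3% higher and 15.2% lower. At an unadjusted P-value under 0.05, 3 genes were higher (Saa1, Saa3 and Apcs) and 2 lower (Saa2 and Saa4, the latter not well above background in any heart). The median log2 difference of the 10 genes was 0.27, against 0.02 over all probes. The 3 cardiac allografts shared a slide and the 3 controls another, so slide and group cannot be told apart. These are whole pieces of tissue, in which fewer cells of a type and less RNA per cell cannot be told apart.

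**Figure D2:**
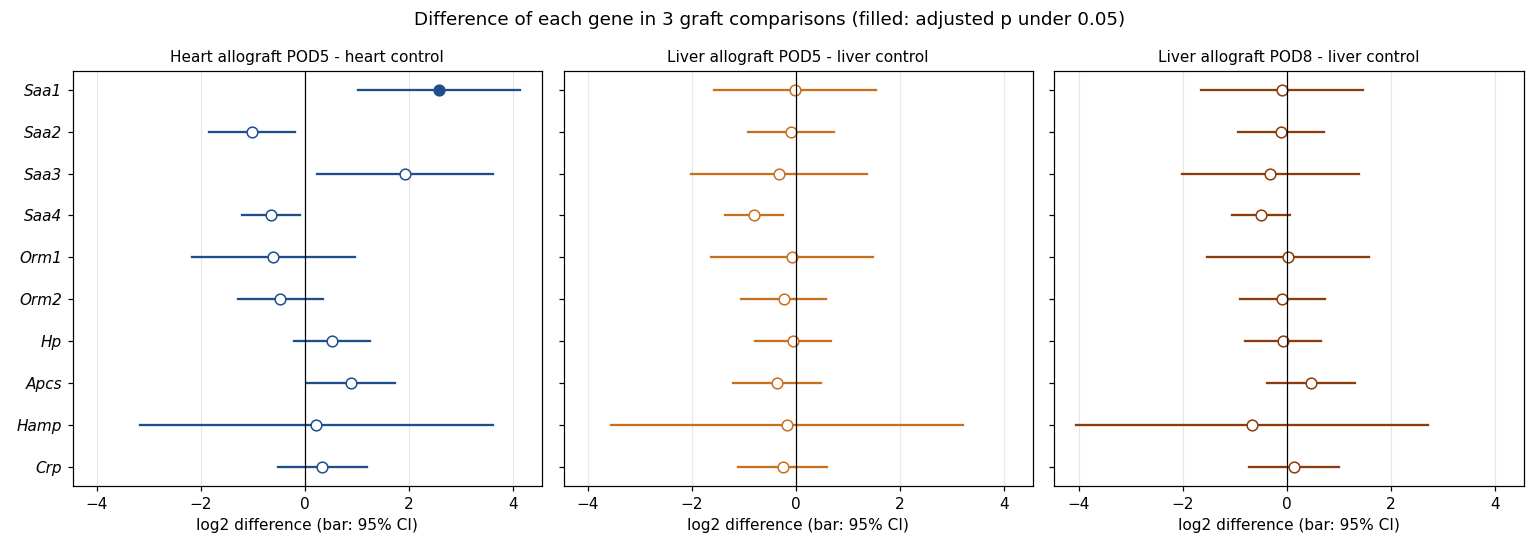
Each panel plots the log2 difference (horizontal axis) of the 10 genes in 1 comparison, with bars for the 95% confidence interval from limma. Filled points passed an adjusted P-value of 0.05. Only Saa1 in the cardiac allografts did so, and all intervals in the hepatic panels include 0 except that of Saa4 at POD5.

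The brighter Saa1 probe read 13.23, 15.98 and 13.93 in the cardiac allografts and 12.20, 10.13 and 13.07 in the controls. All 3 allografts lay above all 3 controls, and allograft 2 was the highest and control 2 the lowest of the 6 hearts. The log2 difference was 2.58 ± 0.71 (SE; 95% confidence interval 1.02 to 4.14; adjusted P = 0.0176 in limma), or 5.97-fold. Without allograft 2 it was 1.77 (adjusted P = 0.0637) and without control 2 it was 1.75 (adjusted P = 0.0666), so that the call rested on both arrays. It was also lost with the slide as a random block (2.51, adjusted P = 0.11) and when the 6 hearts were normalized and fitted alone (2.46, adjusted P = 0.12).

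The other Saa1 probe went the opposite way. It read 2.60, 4.38 and 1.27 in the allografts, none of them well above background, and 4.71, 4.13 and 4.58 in the controls, all 3 of them well above it. The difference was -1.72 ± 0.58 (adjusted P = 0.0433 in limma), and as the allografts had only a bound, the signal was at least 1.82-fold lower. When both probes were averaged, the difference was 0.43 (adjusted P = 0.66), so the direction for Saa1 in the hearts rested on the choice of probe.

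Over the 6 hearts, the pattern of the brighter Saa1 probe was nearest to that of Saa3 among 29795 probes, with a root mean square difference of 0.34 on the centred log2 scale. Its distance from the other Saa1 probe was 2.34. Over the 9 livers the 2 Saa1 probes differed by 0.16, and the probe nearest to the brighter one was that of Saa2, at 0.08. A probe without a gene symbol was also at 0.08 from it, and that of Zfp148 at 0.10. The brighter Saa1 probe hardly varied there (SD 0.06 in the hepatic controls), so a small distance in the livers does not mark a related gene. The points of each distance share arrays, and the letters of the probes were not used here, so whether a probe also bound RNA of a related gene was not tested.

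Saa3 itself read 12.98, 15.55 and 13.75 in the cardiac allografts and 12.67, 10.37 and 13.49 in the controls. The groups overlapped, with 2 of 3 allografts above all controls. Its log2 difference of 1.92 ± 0.78 did not pass the adjustment (adjusted P = 0.0851 in limma, 0.0295 unadjusted), and without control 2 it was 1.02. It passed without control 3 (2.58, adjusted P = 0.0394) and without allograft 1 (2.49, adjusted P = 0.0453). The nearest other gene over the 6 hearts was Marco, a scavenger receptor of macrophages, with a root mean square difference of 0.26. Marco read 10.25, 13.00 and 10.66 in the allografts and 9.84, 7.89 and 11.19 in the controls, thus with the same highest and lowest heart as Saa3, and its part in the Saa3 values was not tested.

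**Figure D3:**
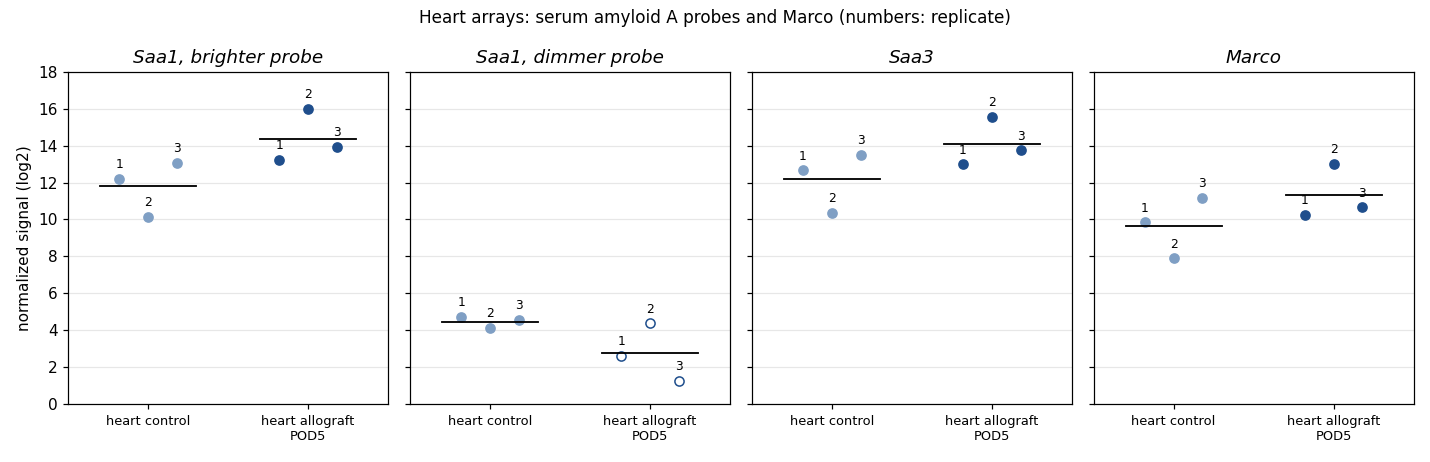
The normalized log2 signal (vertical axis) is plotted for both Saa1 probes, Saa3 and Marco in 3 cardiac controls and 3 cardiac allografts at POD5, with replicate numbers, a line at the mean and open points for signals not well above background. Allograft 2 was the highest and control 2 the lowest heart for the brighter Saa1 probe, Saa3 and Marco, whereas the dimmer Saa1 probe was lower in the allografts.

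Saa2 was dim in the hearts, at 3.54, 4.86 and 3.21 in the allografts and 5.53, 4.41 and 4.74 in the controls. The groups overlapped, and the difference of -1.02 ± 0.38 had an adjusted P-value of 0.0617 in limma. It passed without allograft 2 (-1.52, adjusted P = 0.0027), without control 2 (-1.26, adjusted P = 0.049) and when dim probes were not tested (adjusted P = 0.0405). Allograft 3 was not well above background. It had thus the sign of the dimmer Saa1 probe and not that of the brighter one. Saa4 was not well above background on any cardiac array, and no fold is given.

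Summed marker levels of other cells stood beside these values. Adipocyte markers (8 genes, Lep not well above background) summed to 85599 to 119134 in the controls and 30401 to 38100 in the allografts. Neutrophil markers (10 genes, Elane not well above background, nor Ngp in the allografts) summed to 34719 to 55869 in the controls and 8282 to 34481 in the allografts. On the log2 scale this sum was 13.02, 15.07 and 13.42 in allografts 1 to 3, and 15.28, 15.08 and 15.77 in controls 1 to 3. Allograft 2 thus lay near the controls. Macrophage markers (9 genes, Marco among them, Clec4f not well above background in the allografts) summed to 22895 to 34579 and 24741 to 33792, and all 8 T cell markers were called higher in the allografts. Their part in the Saa1 and Saa3 values was not tested.

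Hp read 13.72, 14.37 and 13.85 in the cardiac allografts and 14.40, 12.69 and 13.31 in the controls. The groups overlapped, with a difference of 0.51 ± 0.34 (95% confidence interval -0.22 to 1.24; adjusted P = 0.288 in limma). Without control 1 it was 0.99 (adjusted P = 0.011) and without control 2 it was 0.12 (adjusted P = 0.845).

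The orosomucoids were near background in the hearts. Orm1 was well above background in none of the allografts and in 1 control, and its values overlapped. Orm2 read 4.06, 4.62 and 4.26 in the allografts and 5.78, 4.15 and 4.44 in the controls, and the difference was -0.48 ± 0.38 (adjusted P = 0.386 in limma).

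Of the pentraxins, Apcs read 3.56, 3.96 and 3.73 in the cardiac allografts and 2.51, 2.96 and 3.12 in the controls. The highest of these values, that of allograft 2, was not well above background. All 3 allografts lay above the controls, as did those of Saa1, while for Saa4, not well above background in either group, all 3 lay below. Over all probes, the groups did not overlap for 54.6% (29.1% higher, 25.5% lower). The difference of 0.89 ± 0.39 did not pass the adjustment (adjusted P = 0.111 in limma). It passed when the 6 hearts were normalized and fitted alone (0.93, adjusted P = 0.0268). Crp was not well above background on any cardiac array.

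Hamp encodes hepcidin, which binds the iron exporter ferroportin and causes its degradation. It read 5.68, 7.37 and 6.62 in the cardiac allografts, and 8.09, 1.24 and 9.70 in the controls. The allografts lay between the controls, of which replicate 2 alone was not well above background. The difference was 0.22 ± 1.55 (95% confidence interval -3.17 to 3.60; adjusted P = 0.956 in limma). Without control 2 all 3 allografts lay below both remaining controls, and the difference was -2.33 (adjusted P = 0.0113). It was also negative, with no call, without allograft 2 (-0.17), with normexp (-0.68) and with the SFC (-1.46), so its sign was not settled.

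Over the 6 hearts, the probes nearest to Hamp were those of Mybphl and Myl4, which are known for atrial expression. The root mean square differences were 0.70 for Mybphl, and 0.74 and 0.77 for separate probes of Myl4. On its brightest probe, the one at 0.77, Myl4, a myosin light chain, read 11.67, 12.32 and 12.54 in the allografts. It read 15.31, 8.08 and 15.17 in the controls. Mybphl, a myosin-binding protein, read 7.39, 8.31 and 8.41 in the allografts and 11.24, 2.54 and 11.18 in the controls, with control 2 not well above background. Control 2 was therefore the lowest heart for all 3 genes, and the other 2 controls were the highest. How much atrium each piece of tissue held was not tested.

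**Figure D4:**
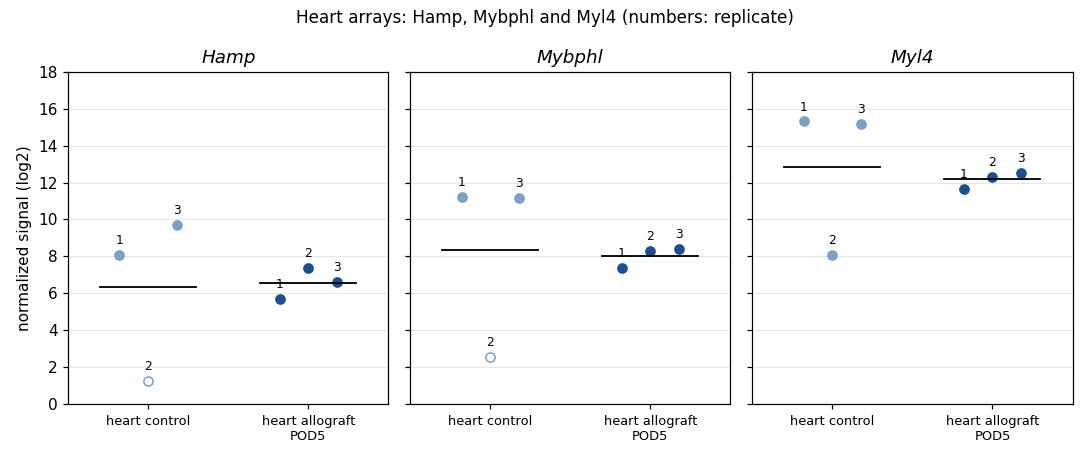
The normalized log2 signal (vertical axis) of Hamp, Mybphl and Myl4 is plotted for 3 cardiac controls and 3 cardiac allografts at POD5, with replicate numbers, a line at the mean and open points for signals not well above background. In each panel control 2 lay lowest, the allografts in the middle and controls 1 and 3 highest.

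In hepatic allografts at POD5, none of the 10 genes passed the test, where 15% of all probes did (8.08% higher, 6.97% lower). At an unadjusted P-value under 0.05, 0 genes were higher and 1 was lower in limma. At POD8 none passed either, with 11.6% of all probes called (7% higher, 4.63% lower), and 0 genes had an unadjusted P-value under 0.05. At POD8 none of the 10 had groups without overlap, against 31.4% of all probes. The standardized fold change (SFC), the study's own statistic, and the methods' t-test also called 0 genes at both days. The median log2 difference of the 10 genes was -0.20 at POD5 and -0.09 at POD8, against -0.07 and -0.08 over all probes. Both comparisons share the 3 hepatic controls. No slide held both POD5 allografts and hepatic controls, so slide and group cannot be told apart at POD5.

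Saa1, Saa2 and Hp were bright in every liver, the controls included. Saa1 read 18.14, 18.10 and 18.21 in the controls, 17.82, 18.14 and 18.42 at POD5, and 18.05, 17.78 and 18.32 at POD8. The groups overlapped, and the difference from controls was -0.02 ± 0.71 at POD5 (95% confidence interval -1.58 to 1.54) and -0.10 ± 0.71 at POD8 (-1.65 to 1.46). On a linear scale before normalization, the signal of this probe ran from 230542 to 289177 in the controls and from 244140 to 336812 in the allografts.

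Saa2 read 18.05, 17.91 and 17.94 in the hepatic controls, 17.65, 17.91 and 18.05 at POD5, and 17.91, 17.59 and 18.05 at POD8. Its differences from controls were -0.10 ± 0.38 (95% confidence interval -0.92 to 0.73) and -0.12 ± 0.38 (-0.94 to 0.70). Hp read 18.01, 18.14 and 18.42 in the controls, 18.14, 18.05 and 18.21 at POD5, and 18.14, 18.21 and 18.01 at POD8, and its differences were -0.06 ± 0.34 at POD5 (-0.79 to 0.67) and -0.07 ± 0.34 at POD8 (-0.80 to 0.66). The 3 probes were among the 19 brightest of 41174 on every hepatic array, where quantile normalization fixes a value by its rank, so a change that kept their ranks would not be seen in these values.

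With each array instead scaled to its 75th percentile, Saa2, Saa4 and Hp were called lower at POD5, by -1.36, -1.31 and -1.17, and at POD8, by -1.31, -0.97 and -1.18. This scaling moved the median of all probes to -0.38 and -0.46. Relative to that median, Saa2 differed by -0.99 and -0.85, Saa4 by -0.94 and -0.51, and Hp by -0.79 and -0.72. None of the 10 genes was called higher in a hepatic comparison under any alternative run.

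Saa3 overlapped between all hepatic groups, at 16.20, 16.63 and 16.71 in the controls, 15.55, 16.35 and 16.66 at POD5, and 16.49, 15.37 and 16.73 at POD8. Its differences were -0.32 ± 0.78 at both days (95% confidence intervals -2.02 to 1.37 and -2.01 to 1.38).

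Saa4 was the hepatic gene nearest to the threshold. It read 14.61, 15.01 and 15.57 in the controls, 14.22, 14.13 and 14.40 at POD5, and 14.71, 14.16 and 14.81 at POD8. All 3 allografts lay below all controls at POD5, where 31.2% of all probes had groups without overlap (12.4% higher, 18.8% lower), and the groups overlapped at POD8. The difference at POD5 was -0.82 ± 0.26 (95% confidence interval -1.37 to -0.26; adjusted P = 0.051 in limma), and its other probe gave -0.88 ± 0.29 (adjusted P = 0.0595). The mean of both probes gave -0.85 (adjusted P = 0.0471), and without hepatic control 1 the difference was -1.03 (adjusted P = 0.0258). Without hepatic control 3 it was -0.56 (adjusted P = 0.13). At POD8 it was -0.51 ± 0.26 (adjusted P = 0.231).

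Orm1 read 15.13, 15.71 and 16.19 in the hepatic controls, and both allograft groups lay within that range, from 15.29 to 16.02. Orm2 overlapped as well, with differences of -0.23 ± 0.38 at POD5 and -0.09 ± 0.38 at POD8. The orosomucoid intervals were -1.64 to 1.49 for Orm1 and -1.05 to 0.59 for Orm2 at POD5.

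Apcs read 11.63, 12.92 and 13.23 in the hepatic controls, 12.31, 12.80 and 11.57 at POD5, and 13.25, 13.03 and 12.88 at POD8. All 3 values at POD8 lay above all 3 at POD5, while 19.7% of all probes had days without overlap (9.29% higher at POD8, 10.4% lower), and the difference between the days was 0.83 ± 0.39 (adjusted P = 0.55 in limma). Crp read 9.48, 10.41 and 11.08 in the controls, and every allograft lay within that range.

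Hamp read 14.22, 14.67 and 15.12 in the hepatic controls, 14.80, 14.40 and 14.30 at POD5, and 13.78, 13.65 and 14.58 at POD8. At POD8, 2 of 3 allografts lay below all controls. The difference there was -0.67 ± 1.55 (95% confidence interval -4.06 to 2.72; adjusted P = 0.833 in limma), in a fit that shared the spread of the cardiac controls (SD 4.49, n = 3) with that of the livers.

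Between POD8 and POD5, none of the 10 genes passed the test and 0 had an unadjusted P-value under 0.05, with 0.0291% of all probes called by limma (0.0219% higher, 0.00729% lower). Summed macrophage markers (9 genes) were 16753 to 42994 in the hepatic controls, 60480 to 82869 at POD5 and 83537 to 105989 at POD8. Most of this sum at both days came from 1 gene, Marco. It read 15.42, 15.88 and 15.43 at POD5, and 15.70, 16.00 and 16.24 at POD8. In the hepatic controls Marco read 13.12, 14.45 and 13.60, and it was called at neither day (adjusted P = 0.138 and 0.0913 in limma). Hepatocyte markers were 535642 to 561056, 491049 to 539778 and 497888 to 520535. T cell markers (8 genes, Cd8a not well above background in the controls) summed to 512 to 606, 7925 to 13156 and 6926 to 8775. Adipocyte markers (8 genes) summed to 3880 to 4828, 7836 to 11597 and 7634 to 11787. Of these, Adipoq, Plin1, Lep and Retn were not well above background in the controls or at POD8, nor was Lep at POD5. Neutrophil markers (10 genes) summed to 3514 to 10162, 4529 to 6961 and 7261 to 18634. Ngp and Elane were not well above background in the controls, nor Ngp and Camp at POD5. Their part in the hepatic values was not tested. The hepatic allografts of POD5 shared no slide with those of POD8, so slide and day cannot be told apart. For POD8, replicates 1 and 2 shared a slide with hepatic controls 1 and 2, and within that slide the differences of the 10 genes ran from -0.73 for Hamp to 0.86 for Apcs. They were 0.54 for Crp, -0.48 for Saa3, -0.38 for Saa4, -0.23 for Saa2 and -0.20 for Saa1, and between -0.04 and 0.12 for Orm1, Orm2 and Hp.

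Whether the cardiac and hepatic responses at POD5 differed was tested as an interaction. None of the 10 genes passed it, with 18% of all probes called (8.51% higher in the heart, 9.45% lower), and 2 were higher in the heart at an unadjusted P-value under 0.05. These were Saa1, with a difference of responses of 2.60 ± 1.01 (adjusted P = 0.0962 in limma) on its brighter probe and -1.48 ± 0.82 (adjusted P = 0.227) on the other, and Apcs, with 1.25 ± 0.55 (adjusted P = 0.135). For Saa3 it was 2.24 (95% confidence interval -0.15 to 4.64; adjusted P = 0.175). A difference between organs was thus not shown for Saa1, although it was called in the heart alone.

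The other genes of the pathway were taken from 6 lists, with 86 genes tested. In the cardiac allografts 19 rose and 20 fell, in hepatic allografts at POD5 13 rose and 8 fell, and at POD8 11 rose and 2 fell. Over all probes, 28.5% (13.3% higher, 15.2% lower), 15% (8.08% and 6.97%) and 11.6% (7% and 4.63%) were called, to which the counts of each list below may be set. Under scaling to the 75th percentile the counts were 28 and 19 in the heart, 12 and 23 at POD5, and 12 and 18 at POD8, which moved the hepatic splits towards lower calls.

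**Figure D5:**
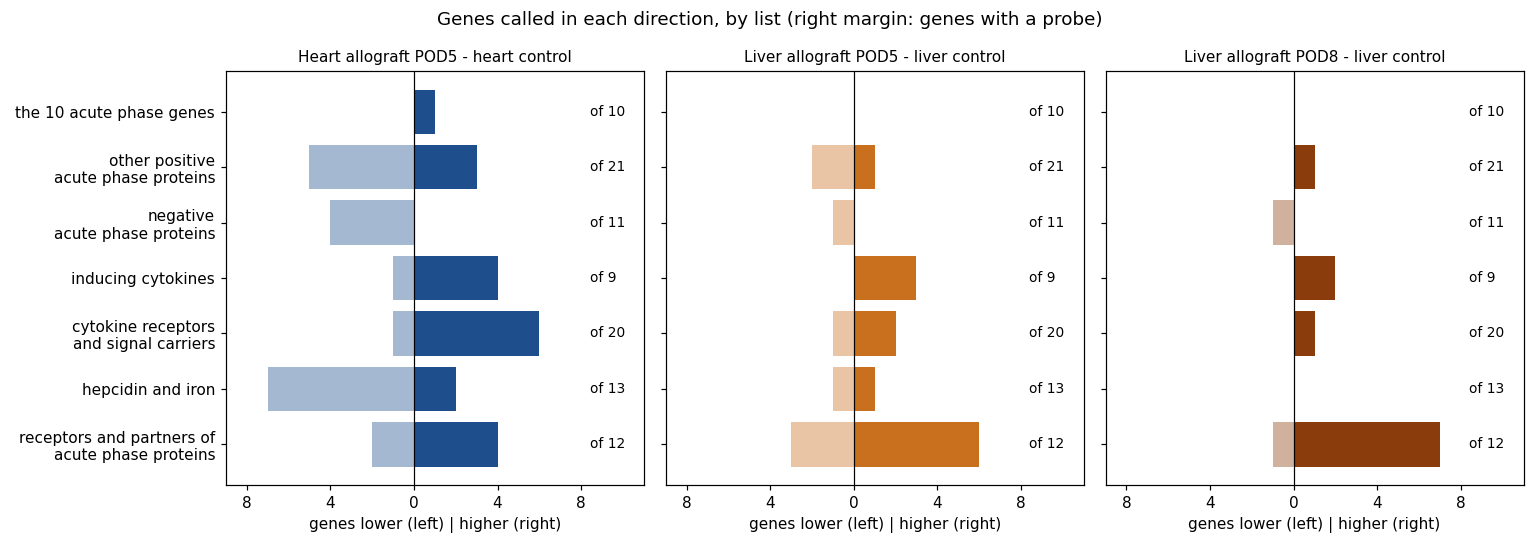
Bars give the number of genes called higher (right, dark) and lower (left, pale) in 3 comparisons for the 10 acute phase genes and 6 lists of related genes, with the number of genes measured at the right margin. The inducing cytokines and the receptors of acute phase proteins had more higher than lower calls in every panel, as they did under scaling to the 75th percentile, while the 10 acute phase genes had 1 call in all (3 in each panel under that scaling).

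Among cytokines that induce the response, 4 of 9 rose and 1 fell in the cardiac allografts, where 13.3% of all probes were called higher and 15.2% lower. Tnf, which encodes tumour necrosis factor, rose by 4.47 ± 0.40 (adjusted P = 1.1e-05 in limma), and Il1b, encoding interleukin-1 beta, rose by 2.19 ± 0.26. In the hepatic allografts 3 of 9 rose at POD5 and 2 at POD8 (8.08% and 7% of all probes), with Tnf at 2.55 ± 0.40 and 3.22 ± 0.40. Il1b rose there by 1.60 ± 0.26 and 2.35 ± 0.26. The response of Tnf was higher in the heart than in the liver at POD5 by 1.91 ± 0.57 (adjusted P = 0.0371). Il6, encoding the main inducer of hepatic acute phase synthesis, passed the test in none of these, at 0.42 (adjusted P = 0.607), 0.94 (adjusted P = 0.25) and -0.37 (adjusted P = 0.696).

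Of 20 receptors and signal carriers, 6 rose and 1 fell in the heart, 2 rose and 1 fell in the liver at POD5, and 1 rose at POD8. The hepatic counts were at or below the 15% and 11.6% of all probes called. Under scaling to the 75th percentile 2 rose and 2 fell in the liver at POD5, and 1 rose and 2 fell at POD8. Socs3, the feedback inhibitor induced by STAT3, rose by 2.06 ± 0.21 in the heart and differed by -0.09 in the liver at POD5, and the interaction was 2.15 ± 0.29 (adjusted P = 0.000945 in limma). Cebpd, a C/EBP factor of the acute phase, rose by 1.38 ± 0.34 in the liver at POD5 and differed by -0.74 in the heart, and the interaction was -2.12 ± 0.49 (adjusted P = 0.0122). Cebpb rose by 1.13 in the heart (adjusted P = 0.0469), and Stat3 was called in no graft comparison.

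Of 21 other positive acute phase proteins, 3 rose and 5 fell in the heart, 1 rose and 2 fell in the liver at POD5, and 1 rose at POD8. Under scaling to the 75th percentile 6 rose and 5 fell in the heart, 1 rose and 10 fell in the liver at POD5, and 1 rose and 8 fell at POD8, which turned the balance in the heart and at POD8. Cfb, complement factor B, rose by 3.72 ± 0.27 in the heart, and Il1rn, the interleukin-1 receptor antagonist, rose in all 3 comparisons, by 1.74, 1.31 and 1.85. Lrg1, a leucine-rich glycoprotein, fell by 1.75 ± 0.24 in the heart and by 0.81 ± 0.24 in the liver at POD5. Lcn2, a siderophore-binding protein of neutrophils and hepatocytes, passed in none, at -0.27, 1.13 and 0.88. Of 11 negative acute phase proteins, 4 fell in the heart (under scaling to the 75th percentile 3 fell and 4 rose) and 1 at each hepatic day (5 and 3 under that scaling). The latter was Fetub, a protease inhibitor of the fetuin family, which fell by 1.42 ± 0.28 at POD5 and by 1.03 ± 0.28 at POD8.

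The iron genes bear on hepcidin. In the heart 2 of 13 rose and 7 fell, among them Slc40a1, which encodes ferroportin, by 2.66 ± 0.21, and Bmp6, an inducer of hepcidin in liver, by 1.66 ± 0.37. Bmp2, another such inducer, rose by 2.55 ± 0.28, with an interaction of 2.56 ± 0.40 (adjusted P = 0.00194 in limma). In the liver at POD5, Fth1 (ferritin heavy chain) rose by 0.51 ± 0.11, though it was at -0.36 under scaling to the 75th percentile, and Tfr2 (transferrin receptor 2) fell by 0.98 ± 0.24, and at POD8 none of the 13 passed, where limma called 11.6% of all probes. Slc40a1 differed by 0.52 in the liver at POD5 (adjusted P = 0.112), and its interaction was -3.18 ± 0.29 (adjusted P = 8.77e-05 in limma). Hamp2, the gene beside Hamp in the mouse, was called in no graft comparison, at -0.74, 0.71 and -0.07.

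Among receptors and binding partners of acute phase proteins, 4 of 12 rose and 2 fell in the heart, 6 rose and 3 fell in the liver at POD5, and 7 rose and 1 fell at POD8, against 28.5%, 15% and 11.6% of all probes called. Cd163, the macrophage receptor for haptoglobin-haemoglobin complexes, fell by 4.47 ± 0.31 in the heart and by 1.55 ± 0.31 in the liver at POD5, and its interaction was -2.92 ± 0.44 (adjusted P = 0.00169 in limma). Fcgr4, an Fc receptor, rose in all 3 comparisons, by 2.38, 2.15 and 2.88. Fpr2, a receptor that binds serum amyloid A, rose by 2.40 ± 0.49 in the heart and, in the hepatic allografts, by 1.81 ± 0.49 (POD5) and 2.19 ± 0.49 (POD8).

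Over all 15 arrays, which are dominated by the 2 organs, the gene most like Saa1 on its brighter probe was F10 (coagulation factor X). The root mean square difference was 0.46 on the centred log2 scale. Outside the 10 genes, the dimmer Saa1 probe was nearest to Apoa2 (0.56). F10 differed by 2.30 ± 0.48 between cardiac allografts and controls (adjusted P = 0.00357 in limma). Saa2 was most like Apoa2 (0.35), an apolipoprotein of high-density lipoprotein, and Apcs most like Ugt2a1 (0.23). With the 10 genes themselves left out, Saa4 and Orm2 were both nearest to Cyp2j5 (0.37 and 0.42), although Orm2 was nearer to the other Saa4 probe (0.35). Among other genes, Saa3 was nearest to Sdc4 (0.70), Hp to Mgst1 (0.36), and Orm1 to Pon1 (0.57) and Crp to Agxt2 (0.38) among probes with a gene symbol. Hamp had the largest distance to its nearest gene, Sds (1.19).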

How the data were processed

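Total RNA from cardiac and hepatic tissue was hybridized by the authors to Agilent mouse arrays with 1 dye, and the deposited values are spot intensities from Agilent Feature Extraction 10.5.1.1, per the file headers background-subtracted and not normalized between arrays. The files held 43379 spots and 41174 probes per array, and their accessions were named through a RefSeq table (GRCm38.p6, used for names and upstream sequence), which matched 64.8% of the probes. Outlier spots (47 to 113 per array) were left out, spots of a probe were averaged as log2 intensities, and all 15 arrays were quantile normalized, as in the study's methods but on the log2 scale. One linear model of the 5 groups was fitted in limma 3.58.1 (R 4.3.3, data.table version 1.17.8) to 41171 probes with values on at least 2 arrays per group, with Benjamini-Hochberg adjustment and a threshold of 0.05. All adjusted P-values are from limma unless another test is named.

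A gene was read on its brightest probe. A probe counted as well above background on an array when at least 0.5 of its spots were so marked, and "at least" folds set the brighter group against the lowest signal well above background. The number of arrays, 3 per group, limits the precision. The exact permutation test of a single gene could not go below a two-sided P-value of 0.1 and was not used. Likeness was the root mean square difference of log2 values centred on each probe's mean.

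The 10 genes, the pathway and marker lists and the tests were chosen with earlier results of these data known. All 10 genes were described on their brightest probe, and the second probes of Saa1 and Saa4 only where stated. From each pathway list, the genes with the largest differences among those called in each direction were open to naming, with 9 genes always named. Marco, Mybphl, Myl4 and F10 were picked as nearest patterns after their values were seen, and Hamp2, Fpr2 in the livers and Serpina1a (no probe under that name) were looked up by name. Sequences were searched with Biopython 1.88 and figures drawn with matplotlib 3.10.9 in Python 3.11.15. The fits were tested on simulated data. The alternatives were normalization by organ or by the study's phases, scaling to the 75th percentile, normexp on median signals (offset 50, mean signals not used here), a filter on dim probes, a trended robust prior, kept outlier spots, the study's SFC statistic, the methods' t-test, the replicate number or slide as a block, other probes and leaving out each array. The pair of control arrays left out together was chosen after seeing the data.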

Additional observations from a re-analysis of the deposited data

How the results depend on the processing

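In the cardiac allografts, normalization by organ called 2 of the 10 genes. These were Saa1, higher, and Saa4, lower and not well above background in any heart. Scaling to the 75th percentile called 3 (Saa1, Apcs and Crp, the last not well above background in any heart). Among bright probes 2 were called, Saa1 higher and Saa2 lower. The number called was 0 with the SFC, the methods' t-test (Benjamini-Hochberg or Bonferroni) and the slide as a random block. It ran from 1 to 3 when single arrays were left out. In the hepatic allografts at POD5 it was 3 under that scaling, 1 among bright probes, 1 with a trended robust prior and 0 to 1 when single arrays were left out, and at POD8 it was 3 under that scaling. Of the interaction, 6 genes were called under that scaling and 0 to 1 when single arrays were left out. Between control organs the t-test with Bonferroni called 0. Without hepatic control 1 and cardiac control 2 together, a choice made after seeing the data, 1 gene was called at POD5 and 1 in the interaction. The cardiac difference of Saa1 was -1.72 on the other probe, and that of Hamp was -2.33 without cardiac control 2 and -2.33 without both controls, over a range of -2.33 to 1.84 when single arrays were left out. The cause of these changes was not tested, apart from fewer samples or another probe.

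With the replicate block, 1 of the 10 genes was called in the cardiac allografts, and all 60 differences of the 10 genes kept their call. Samples of the same number did not deviate together (correlations of -0.12 to 0.16, 1 of 30 pairs over 0.1), so the numbers did not pair the samples.

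Over all probes, the call counts moved by over 1.5 times under some alternatives. In the cardiac comparison they were 11731 in the text's setting, 20749 under scaling to the 75th percentile (73.8% higher, against 46.6%), 241 with the SFC, 19 with the Bonferroni t-test and 7220 with the slide block. For hepatic POD5 they were 6194, and 9663 (31.2% higher, against 53.7%), 362, 6 and 3584 in that order, with 231 by the Benjamini-Hochberg t-test, 1506 in the phase fit, 4061 without both controls and 3811 without allograft 1. For POD8 they were 4788, and 14015 (20.5% higher), 402 and 14, with 816 by the Benjamini-Hochberg t-test and 2240 in the phase fit, and 2616 to 7270 when single arrays were left out. The interaction had 7395 calls, and 16981 (80.8% higher) with the scaling, 4794 with the slide block and 4761 without cardiac control 3. Between POD8 and POD5 there were 12, and 1 to 130 over the alternatives, and between control organs the Bonferroni t-test called 366 in place of 22169. The brightest hepatic genes kept near-fixed ranks, and several of the 10 genes were near background in the hearts, some of them with a bound only, which limits both readings.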
